A study of Mus musculus with 12 samples.

Results

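The B cell homing and positioning receptors are 9 genes for G protein-coupled receptors that guide B cells through lymphoid tissue: Ccr6, Ccr7, Cxcr4, Cxcr5, S1pr1, S1pr2, S1pr4, Gpr183 and Cnr2. They were taken by symbol, at every probe set annotated to one of them alone, which gave 11 of the 45037 probe sets tested and 9 of the 18193 genes with a probe set of their own. S1pr2 and Gpr183 had 2 probe sets each, and the other 7 genes had 1. The study hybridised RNA of mouse splenic B cells to Affymetrix expression arrays. The 4 groups, with 3 arrays each, were EFLmDREAM transgenic B cells after 2 days of LPS and IL-4, wild type B cells after 2 days of LPS and IL-4, unstimulated EFLmDREAM transgenic B cells (day 0) and unstimulated wild type B cells (day 0). EFLmDREAM is a mutated form of DREAM, a calcium-binding repressor of transcription that is the product of Kcnip3. All groups share their isolation, a depletion of CD43-bearing cells with a stated purity above 98%, and the stimulated cells received 20 µg/ml LPS, a bacterial ligand of TLR4, with 10 ng/ml IL-4, a T helper cytokine. The promoter of the transgene, the strain and the age of the mice are not stated by the labels.

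In the spleen, B cells enter and hold the follicle through CXCR5, which follows CXCL13, and move toward the T cell zone when CCR7 outweighs it, since CCR7 follows CCL19 and CCL21. CXCR4 answers CXCL12 in the red pulp, the bone marrow and the dark zone of germinal centres, and CCR6 answers CCL20. GPR183, also called EBI2, follows an oxysterol to the follicle edge, S1PR1 follows sphingosine 1-phosphate into blood and lymph and to the marginal zone, S1PR2 holds cells at the germinal centre's middle, and CNR2 binds endocannabinoids and helps to keep marginal zone B cells in place.

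DREAM binds a short DNA element whose core is GTCA, so the promoter windows of 3 receptors are shown: Cxcr4, which differed most between genotypes, and S1pr2 and Gpr183, each read by a pair of probe sets. Each window runs from 250 bases before to 50 after the gene's start (RefSeq, GRCm38.p6), 5′ to 3′ on the gene's strand, which is the minus strand for all 3. Cxcr4 lies at chr1:128592250-128592549, Gpr183 at chr14:121965144-121965443 and S1pr2 at chr9:20976744-20977043, and capitals mark GTCA or its reverse complement TGAC.
Cxcr4: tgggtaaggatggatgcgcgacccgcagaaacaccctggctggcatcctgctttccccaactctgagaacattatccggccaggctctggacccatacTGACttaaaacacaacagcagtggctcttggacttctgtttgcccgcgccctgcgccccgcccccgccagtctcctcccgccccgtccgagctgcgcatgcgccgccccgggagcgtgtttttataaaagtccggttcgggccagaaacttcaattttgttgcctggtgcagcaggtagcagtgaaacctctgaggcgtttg
Gpr183: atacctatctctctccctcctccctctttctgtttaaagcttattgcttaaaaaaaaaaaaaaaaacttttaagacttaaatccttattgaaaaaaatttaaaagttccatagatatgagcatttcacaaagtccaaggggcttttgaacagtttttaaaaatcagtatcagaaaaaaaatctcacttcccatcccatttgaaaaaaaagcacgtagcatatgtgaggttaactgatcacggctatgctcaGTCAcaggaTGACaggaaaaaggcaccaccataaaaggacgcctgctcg
S1pr2: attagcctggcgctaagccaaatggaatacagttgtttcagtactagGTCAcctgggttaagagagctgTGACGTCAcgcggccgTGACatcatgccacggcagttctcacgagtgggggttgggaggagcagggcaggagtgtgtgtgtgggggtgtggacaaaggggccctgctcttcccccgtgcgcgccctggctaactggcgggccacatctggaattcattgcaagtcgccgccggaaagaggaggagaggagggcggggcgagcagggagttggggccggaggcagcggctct
The Cxcr4 window held 1 match to the core, the Gpr183 window 2 and the S1pr2 window 4. A match of this length is common: 85.2% of 32851 windows held at least 1 on either strand, with a median of 2.0. The motif CACCC, which KLF factors bind, was found on either strand 1 time each in the Cxcr4 and S1pr2 windows and 0 times in the Gpr183 window, against 57.5% of all windows with a match. The FOXO motif GTAAACA was in none of these 3 windows and in 3.65% of all windows. The table of windows matched 6 of the 9 genes, and Ccr7, Cxcr5 and S1pr1 are named only. These matches describe letters and are no evidence of binding.

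Values below are on the deposited log2 scale unless stated otherwise, where a difference of 1 is a doubling. Arrays of the same group correlated at 0.984 to 0.997 over all probe sets. The array medians were 5.36 to 5.41 in stimulated cells and 5.97 to 6.05 in unstimulated cells. All 7 measured B cell identity genes lay above the array median in every group, with group means from 6.95 to 12.94. The leading Kcnip3 probe set, 1418544_at, differed between transgenic and wild type cells by 0.03 ± 0.12 at day 2 and 0.23 ± 0.12 at day 0 (SE, n = 3 each, limma adjusted p = 0.976 and 0.279); the labels do not say if it can read RNA of the transgene, so it checks no genotype. Replicate 1 of unstimulated wild type cells stood apart in RNA integrity: its actin 5′ minus 3′ signal was −2.22, against −0.67 to −0.54 in the other day 0 arrays and −1.36 to −0.43 in the day 2 arrays. Results for the receptors are given with and without it where it changed them.

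Markers of other cells differed between the genotypes at day 0. In unstimulated transgenic cells 9 of 9 granulocyte markers, 9 of 11 myeloid markers, 5 of 6 erythroid markers and 3 of 10 T and NK cell markers were called higher, and none lower. Their summed linear values were 10022 to 14810 in transgenic and 737 to 877 in wild type arrays for granulocyte markers, 8701 to 13079 and 4297 to 5422 for myeloid markers, 1353 to 1976 and 398 to 678 for erythroid markers, and 1250 to 1429 and 731 to 981 for T and NK cell markers. At day 2, 3 granulocyte and 2 myeloid markers were called higher in transgenic cells, with granulocyte sums of 374 to 462 against 257 to 276 and myeloid sums of 1142 to 1564 against 752 to 875. Among B cell markers at day 0, 7 of 8 marginal zone genes were higher in transgenic cells (12887 to 13470 against 9294 to 9301 summed), while 1 of 6 follicular genes was higher and 3 were lower (12303 to 12424 against 12775 to 13803). At day 2, 4 of 8 marginal zone genes were higher in transgenic cells (9975 to 10711 against 7664 to 8849). Plasma cell genes were called higher in transgenic cells for 4 of 8 at day 0 (18172 to 18551 against 12347 to 13897) and 3 of 8 at day 2 (12577 to 13198 against 8928 to 10428). For the interaction, 9 of 9 granulocyte, 4 of 6 erythroid and 3 of 11 myeloid markers were called negative. Over all genes, 1.39% were called negative and 0.588% positive for the interaction. Of 7 B cell identity genes, 2 were called lower in transgenic cells at day 0 and none higher. They were Fcrla (−0.72, limma adjusted p = 0.000622) and Blk (−0.27, 0.0392). The 7 genes summed to 31534 to 32039 against 29828 to 35921. At day 2, 1 was higher and none lower, and 1 had a positive called interaction. Over all genes, 5.45% were called higher and 4.9% lower at day 0, and 1.24% and 1.1% at day 2. The array scale has no true zero, so no marker can be called absent. The part of these markers in the receptor results was not tested, and in bulk RNA fewer cells of a type and less RNA per cell cannot be told apart.

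The first question was whether the receptors differed between transgenic and wild type B cells within each state. At day 0, Cxcr4 was lower and Cxcr5 was higher in transgenic cells, the other 7 receptors were not called at their leading probe sets, and no receptor was called at day 2. So 1 of 9 receptors was higher at day 0, where 5.45% of all genes were called higher, and 1 of 9 was lower, where 4.9% of all genes were called lower. At day 2 limma called 0 of 9, with the variance trend also 0, where the background was 1.24% higher and 1.1% lower. There 4 of 9 had an unadjusted limma p under 0.05, as did 2402 of all 18193 genes. The median difference of the 9 genes was −0.13 at day 0 and −0.15 at day 2, beside 0.013 and 0 over all genes. A gene was called at a limma adjusted p under 0.05 over all probe sets, and its leading probe set is the one with the highest mean over the 12 arrays. Groups do not overlap where every array of one lies above every array of the other. At day 2 this held for Ccr7, Cxcr4, Cxcr5, S1pr1, S1pr4 and Gpr183 at their leading probe sets, none of them called. The share of all probe sets without overlap was not computed, so such separation is a description only.

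**Figure D1:**
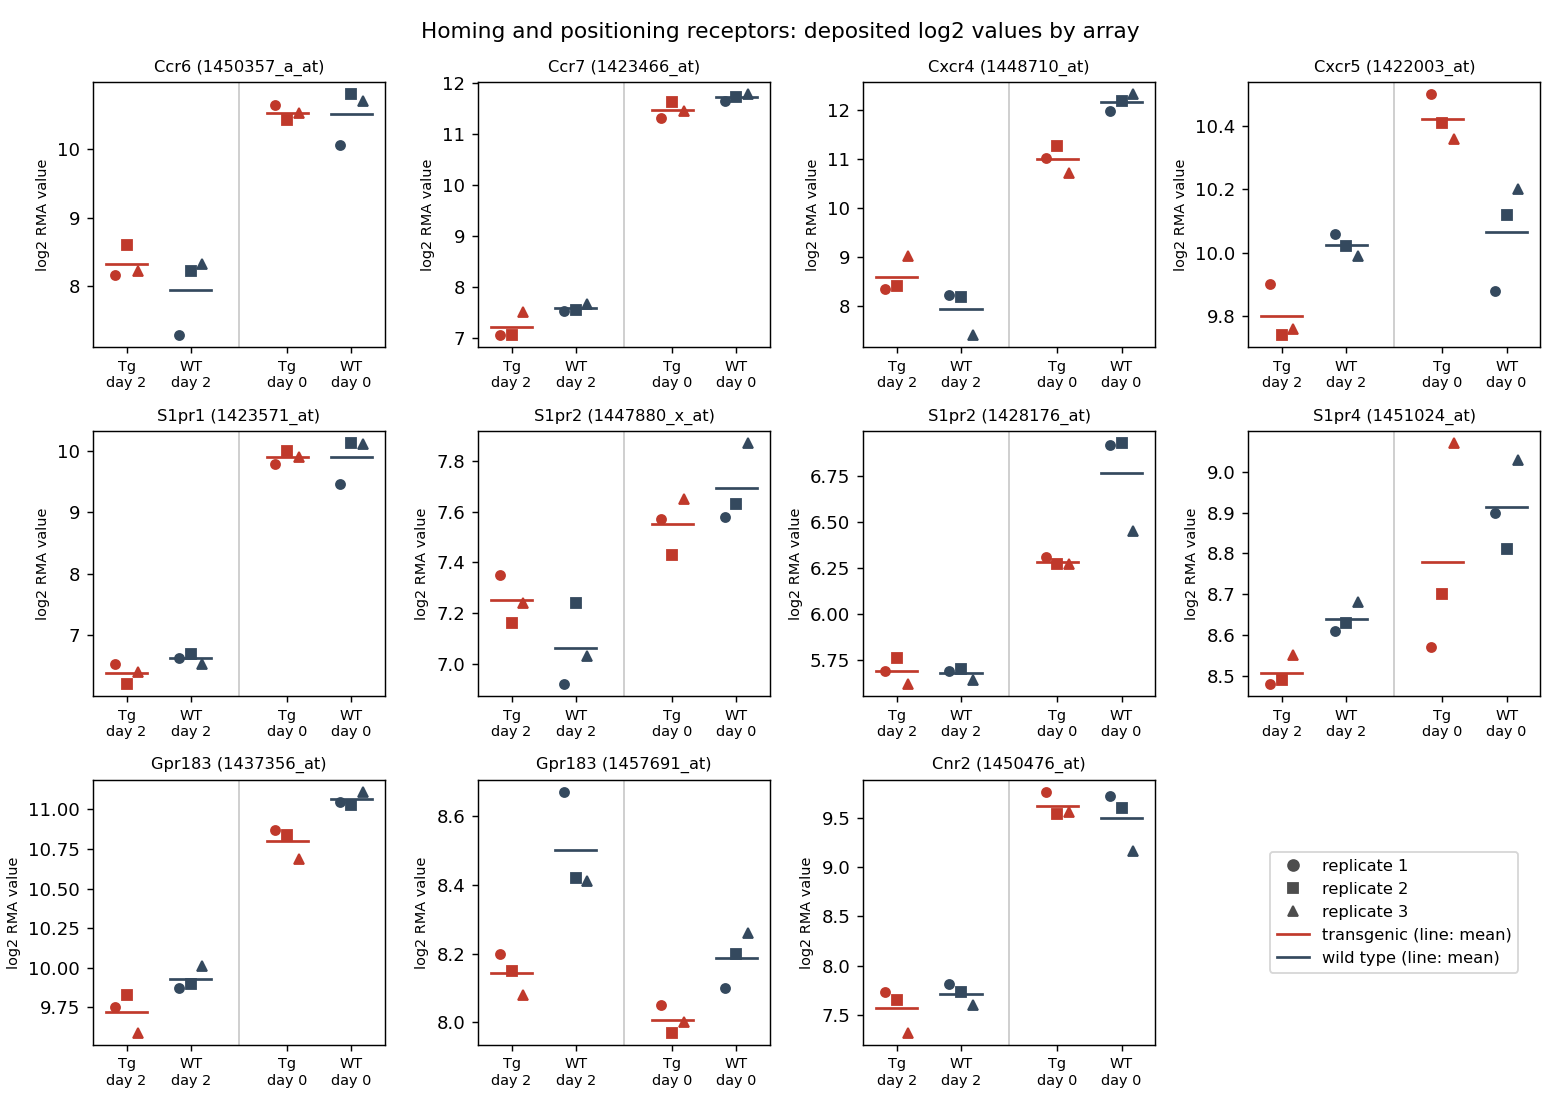
Deposited log2 values of the 11 receptor probe sets, one panel each, with 1 symbol per array (shape gives the replicate number) and a line at each group's mean; the vertical axis is the log2 RMA value and its range differs by panel. Transgenic Cxcr4 values lie above wild type at day 2 and below it at day 0, and the lone low wild type points of Ccr6 (10.06) and S1pr1 (9.46) at day 0 are both replicate 1.

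Cxcr4 (probe set 1448710_at) gave the clearest difference. In unstimulated cells it read 11.03, 11.27 and 10.71 in the transgenic arrays and 11.99, 12.20 and 12.33 in the wild type arrays. The highest transgenic array thus lay below the lowest wild type array. The difference was −1.17 ± 0.23 (SE, n = 3 each), 2.25-fold lower in transgenic cells, with a limma adjusted p of 0.0066, and it was called in all 12 alternative settings, including without wild type replicate 1 (−1.26, adjusted p = 0.00924). After stimulation the order turned: Cxcr4 read 8.34, 8.40 and 9.01 in transgenic arrays and 8.22, 8.17 and 7.40 in wild type arrays. The groups again did not overlap, with transgenic cells higher by 0.65 ± 0.23 (95% interval 0.16 to 1.15, unadjusted), but the limma adjusted p was 0.233. The size of the day 2 difference leans on single arrays: it was 0.39 without wild type replicate 3 and 0.44 without transgenic replicate 3. Replicate 3 of every group also stood apart in the Y-linked gene Eif2s3y, at 3.33 to 3.78 against 8.27 to 9.55 in replicates 1 and 2. The part of what sets replicate 3 apart in the Cxcr4 values was not tested.

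The question of whether a genotype difference itself differed between the states was tested as an interaction. For Cxcr4 the difference at day 2 exceeded that at day 0 by 1.82 ± 0.32 on the log2 scale (n = 3 per group, limma adjusted p = 0.0134). It was called in all 17 alternatives, in which it lay between 1.56 and 1.97. One receptor, Cxcr4, was called in this direction and one, Cxcr5, in the other, 1 of 9 each, where 0.588% and 1.39% of all genes were called. The median over the receptors was 0, beside −0.01 over all genes.

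Cxcr5 (1422003_at), the follicle-homing receptor, differed in the direction opposite to Cxcr4. In unstimulated cells it read 10.50, 10.41 and 10.36 in transgenic arrays and 9.88, 10.12 and 10.20 in wild type arrays, with no overlap. The difference was 0.36 ± 0.089 (SE, n = 3 each, limma adjusted p = 0.0257), 1.28-fold higher in transgenic cells. At day 2 it read 9.90, 9.74 and 9.76 in transgenic arrays and 10.06, 10.02 and 9.99 in wild type arrays, again without overlap, and the difference of −0.22 ± 0.089 was not called (limma adjusted p = 0.338). The interaction was −0.58 ± 0.13 (limma adjusted p = 0.0399). Both Cxcr5 calls were close to the threshold. Leaving out wild type replicate 1 ended the day 0 call (0.26, adjusted p = 0.0812), as did leaving out transgenic replicate 1 (0.32, 0.0957), 2 (0.36, 0.0612) or 3 (0.39, 0.0545), or a fit on the 6 day 0 arrays alone (0.36, 0.108). The interaction kept its call without wild type day 0 replicate 1 (−0.49, 0.0451) or replicate 3 (−0.65, 0.0181) and lost it without any other single array (−0.63 to −0.54, adjusted p between 0.0538 and 0.114), with the replicate block (0.0626), and on quantile-normalized values (−0.61, 0.0538).

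Ccr7 (1423466_at), the receptor for T zone chemokines, read 11.32, 11.64 and 11.46 in unstimulated transgenic arrays and 11.65, 11.73 and 11.78 in unstimulated wild type arrays. Every transgenic array lay just below every wild type array, by a mean of −0.25 ± 0.12 (limma adjusted p = 0.228). At day 2 the arrays read 7.06, 7.07 and 7.51 in transgenic and 7.53, 7.56 and 7.66 in wild type cells, a difference of −0.37 ± 0.12 (limma adjusted p = 0.185). That value also left the groups apart without a call. Without transgenic replicate 3, the highest of its group, it became −0.52 and was called (adjusted p = 0.0251).

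Gpr183, the oxysterol receptor, followed the same order at both of its probe sets without reaching a call. At 1437356_at it read 10.87, 10.84 and 10.69 in unstimulated transgenic arrays and 11.05, 11.03 and 11.11 in wild type arrays, a difference of −0.26 ± 0.083 (limma adjusted p = 0.0674). At 1457691_at the stimulated arrays read 8.20, 8.15 and 8.08 in transgenic and 8.67, 8.42 and 8.41 in wild type cells, a difference of −0.36 ± 0.085 (limma adjusted p = 0.0541). In both probe sets and both states all transgenic arrays lay below all wild type arrays, which is a description and no call. The remaining differences were −0.20 at 1437356_at at day 2 (limma adjusted p = 0.354) and −0.18 at 1457691_at at day 0 (0.215). With array medians subtracted, the call was made for 1437356_at at day 0 (−0.31, 0.0355) and for 1457691_at at day 2 (−0.38, 0.0451), and for the same probe set at day 2 when dim probe sets were left out (adjusted p = 0.0447).

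None of the sphingosine 1-phosphate receptors was called at its leading probe set in either state. S1pr1 (1423571_at), the exit receptor, read 9.78, 9.99 and 9.90 in unstimulated transgenic arrays and 9.46, 10.12 and 10.10 in wild type arrays, a difference of −0.0033 (95% interval −0.33 to 0.33, limma adjusted p = 0.991). At day 2 it read 6.53, 6.21 and 6.41 in transgenic and 6.63, 6.70 and 6.54 in wild type cells, a difference of −0.24 (interval −0.57 to 0.089, limma adjusted p = 0.656). Without wild type replicate 1 the day 0 difference was −0.22 (0.268). S1pr2, the germinal centre confinement receptor, was read differently by its probe sets. At 1428176_at it read 6.31, 6.27 and 6.27 in unstimulated transgenic arrays and 6.92, 6.93 and 6.45 in wild type arrays, a difference of −0.48 ± 0.11 (limma adjusted p = 0.0164). At the leading 1447880_x_at, whose suffix in Affymetrix's naming marks probes that can match other transcripts, the arrays read 7.57, 7.43 and 7.65 in transgenic and 7.58, 7.63 and 7.87 in wild type cells, and the groups overlapped (−0.14 ± 0.11, limma adjusted p = 0.454). As the mean over both probe sets, S1pr2 was called lower at day 0 (−0.31, 0.0189). The call at 1428176_at was lost without wild type replicate 1 (−0.41, 0.0558) or 2 (−0.40, 0.0631), without transgenic replicate 3 (−0.48, 0.0604), and on the 6 day 0 arrays alone (−0.48, 0.0943). At day 2 the S1pr2 differences were 0.013 at 1428176_at and 0.19 at 1447880_x_at (limma adjusted p = 0.988 and 0.591). Their interactions were 0.50 and 0.33 (limma adjusted p = 0.166 and 0.366), and the larger was called without wild type day 0 replicate 3 (0.66, 0.00552). S1pr4 (1451024_at), which binds the same lipid, differed by −0.13 ± 0.11 in each state (limma adjusted p = 0.513 at day 0 and 0.784 at day 2).

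Ccr6 (1450357_a_at), the CCL20 receptor, read 10.64, 10.42 and 10.53 in unstimulated transgenic arrays and 10.06, 10.80 and 10.70 in wild type arrays, a difference of 0.01 (95% interval −0.53 to 0.55, limma adjusted p = 0.987). At day 2 it read 8.16, 8.60 and 8.23 in transgenic and 7.29, 8.22 and 8.32 in wild type cells, and the groups overlapped (0.39 ± 0.25, limma adjusted p = 0.666). Wild type replicate 1 was the lowest Ccr6 array in both states, and without the day 0 one the day 0 difference was −0.22 (0.710). Cnr2 (1450476_at) read 9.76, 9.54 and 9.56 in unstimulated transgenic arrays and 9.72, 9.60 and 9.16 in wild type arrays (0.13 ± 0.14, limma adjusted p = 0.648). At day 2 Cnr2 read 7.73, 7.65 and 7.32 in transgenic and 7.81, 7.73 and 7.60 in wild type cells (−0.15 ± 0.14, limma adjusted p = 0.830). The wide intervals of Ccr6 leave room for a difference of either sign.

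**Figure D2:**
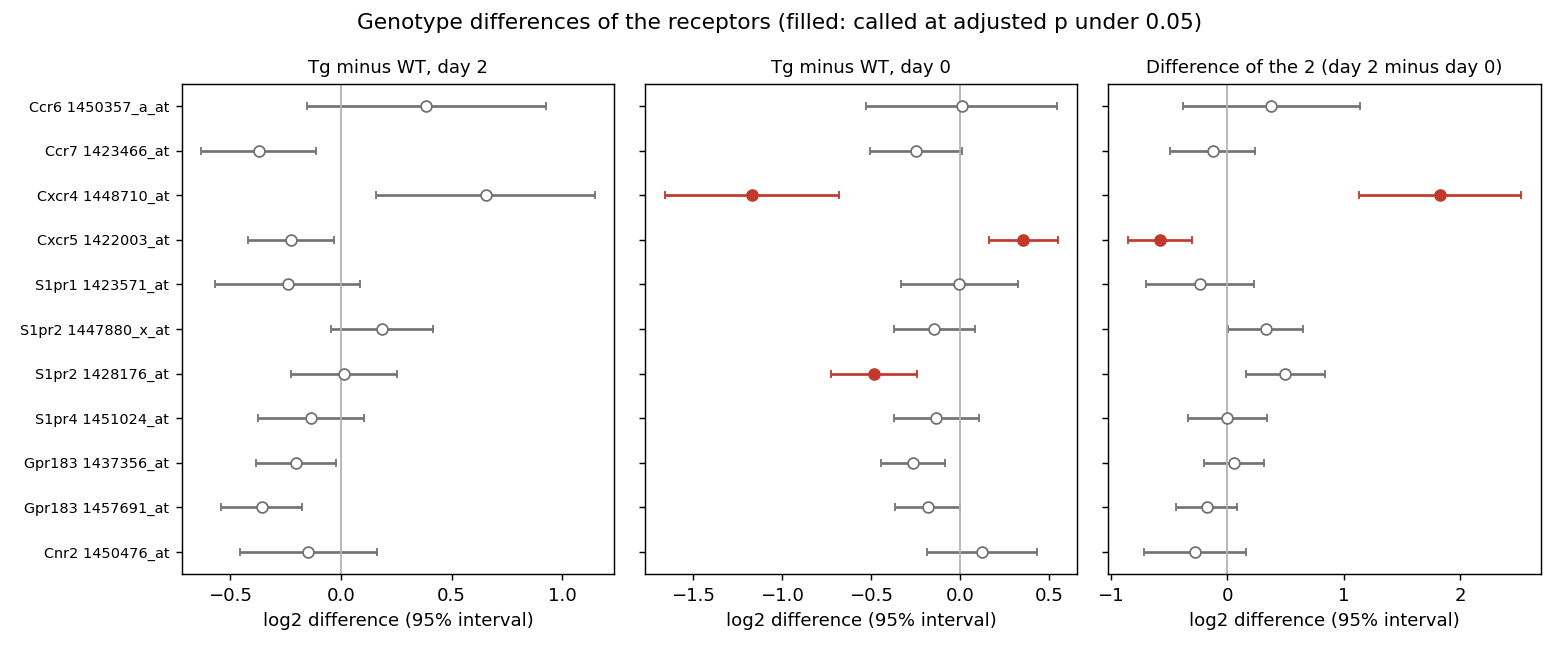
Transgenic minus wild type log2 differences of the 11 receptor probe sets (points, with 95% intervals) at day 2, at day 0, and the day 2 difference minus the day 0 difference; filled points were called at a limma adjusted p under 0.05. The called points are Cxcr4 (−1.17), Cxcr5 (0.36) and S1pr2 1428176_at (−0.48) at day 0, none at day 2, and Cxcr4 (1.82) and Cxcr5 (−0.58) in the right panel.

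The second question was what 2 days of LPS and IL-4 did to the receptors. In both genotypes Ccr6, Ccr7, Cxcr4, S1pr1, Gpr183 and Cnr2 fell at their leading probe sets, and Cxcr5 also fell in transgenic cells. Thus 7 of 9 receptors fell in transgenic cells, where 23.3% of all genes were called lower, and 6 of 9 in wild type cells, where 24% were. On quantile-normalized values none rose at its leading probe set, where 35.2% of all genes in transgenic cells and 36% in wild type cells were called higher. The median change of the 9 receptors was −1.92 in transgenic and −1.64 in wild type cells, against 0.083 and 0.080 over all genes. B cell markers fell too: 6 of 7 identity genes were called lower in each genotype (medians −1.12 in transgenic and −1.48 in wild type cells), and the medians were −1.70 and −1.73 for follicular and −1.46 and −1.28 for marginal zone genes. Their part in the receptors' fall was not tested. These values come from the arrays quantile-normalized together, because the deposited distributions differ between the states: the median change of all probe sets was 0.04 in each genotype on this scale, −0.40 in each on the deposited scale, and 0.24 in transgenic and 0.22 in wild type cells with array medians subtracted. The receptor counts depend on this choice: deposited values called 9 receptors in transgenic and 8 in wild type cells, all lower. Array medians subtracted called 8 in each, of which 2 were higher: S1pr2 and S1pr4 in transgenic cells and Cxcr5 and S1pr4 in wild type cells. Of all 45037 probe sets, deposited values called 35407 in transgenic and 35555 in wild type cells, in either direction. With array medians subtracted 30321 and 30177 were called. Most probe sets were thus called on these scales, so high receptor counts there say little about the receptors.

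Ccr7 fell in both genotypes. On the quantile-normalized scale it read 7.30, 7.32 and 7.73 in stimulated and 11.49, 11.79 and 11.62 in unstimulated transgenic arrays, 18.2-fold lower (−4.19 ± 0.11, limma adjusted p = 1.7e-11). In wild type cells it read 7.72, 7.74 and 7.78 in stimulated and 11.83, 11.93 and 11.96 in unstimulated arrays, 17.9-fold lower (−4.16 ± 0.11, limma adjusted p = 1.47e-11). No stimulated array came near an unstimulated one. On the deposited scale the 2 changes differed by −0.12 (95% interval −0.49 to 0.24, limma adjusted p = 0.812).

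Cxcr4 fell further in wild type cells. Stimulated transgenic arrays read 8.44, 8.52 and 9.04 and unstimulated ones 11.20, 11.42 and 10.86, a 5.64-fold fall (−2.50 ± 0.21, limma adjusted p = 3.79e-07). Stimulated wild type arrays read 8.32, 8.29 and 7.57 and unstimulated ones 12.16, 12.31 and 12.43, an 18.9-fold fall (−4.24 ± 0.21, limma adjusted p = 2.23e-09). In order of level, unstimulated wild type stood above unstimulated transgenic, then stimulated transgenic and stimulated wild type, and the last pair were the neighbours that were not called apart. The interaction of Cxcr4 given above is the test of this difference.

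S1pr1 fell 9.92-fold in transgenic cells (−3.31 ± 0.17, limma adjusted p = 3.98e-09), with 6.81, 6.49 and 6.71 in stimulated and 9.88, 10.06 and 10.01 in unstimulated cells. In wild type cells it fell 8.16-fold (−3.03 ± 0.17, limma adjusted p = 7.99e-09), with 6.93, 6.98 and 6.81 in stimulated and 9.41, 10.19 and 10.20 in unstimulated arrays. In neither genotype did a stimulated S1pr1 array come near an unstimulated one. Ccr6 fell by 2.23 ± 0.24 in transgenic and 2.54 ± 0.24 in wild type cells (limma adjusted p = 4.18e-06 and 1.1e-06), and Cnr2 fell by 1.92 ± 0.14 and 1.64 ± 0.14 (7.42e-08 and 3.16e-07). These 3 receptors and Ccr7 showed no called interaction, with adjusted p between 0.619 and 0.812.

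Gpr183 was read in opposite directions by its probe sets. At 1437356_at it fell by 1.25 ± 0.080 in transgenic and 1.36 ± 0.080 in wild type cells (limma adjusted p = 2.84e-08 and 1.16e-08). At 1457691_at it rose by 0.43 ± 0.091 in transgenic and 0.54 ± 0.091 in wild type cells (0.00124 and 0.000202), and on the deposited scale the rise was 0.14 in transgenic cells, no longer called (0.152), and 0.31 in wild type cells (0.00431). The files do not say which stretch of the transcript each probe set reads. The direction of Gpr183 after stimulation therefore depends on the probe set.

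Cxcr5 had the smallest change of the 4 chemokine receptors in each genotype. On the quantile-normalized scale it read 9.85, 9.72 and 9.72 in stimulated and 10.65, 10.52 and 10.51 in unstimulated transgenic arrays (−0.79 ± 0.10, limma adjusted p = 1.84e-05). In wild type cells it read 9.98, 9.96 and 9.89 in stimulated and 9.88, 10.19 and 10.31 in unstimulated arrays (−0.19 ± 0.10, limma adjusted p = 0.134). With array medians subtracted these Cxcr5 changes were 0.017 (adjusted p = 0.875) in transgenic cells and 0.57 (7.43e-05) in wild type cells, so the direction after stimulation flips with the scaling. Without the unstimulated wild type replicate 1 the wild type change was −0.31 and called (0.00693).

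S1pr4 changed by −0.15 in transgenic and −0.16 in wild type cells, neither called (limma adjusted p = 0.373 and 0.343). The other scalings called S1pr4 in opposite directions: −0.27 in each genotype on deposited values (0.0374 in transgenic and 0.0372 in wild type cells), and 0.37 (0.00867) in transgenic and 0.34 (0.0127) in wild type cells with array medians subtracted. For S1pr2, 1447880_x_at changed by 0.17 in transgenic and −0.18 in wild type cells (limma adjusted p = 0.229 and 0.218), and 1428176_at by 0.038 and −0.49 (0.802 and 0.00275). On the deposited scale all 4 S1pr2 changes were negative and called: −0.30 (0.0197) in transgenic and −0.63 (0.000127) in wild type cells at the leading probe set, and −0.59 (0.000302) and −1.09 (1.35e-06) at the other. With array medians subtracted the leading probe set was called higher in transgenic cells (0.34, 0.00867), so the sign there depends on the scaling. As the mean over both probe sets, S1pr2 was called lower in wild type cells (−0.33, 0.00129).

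**Figure D3:**
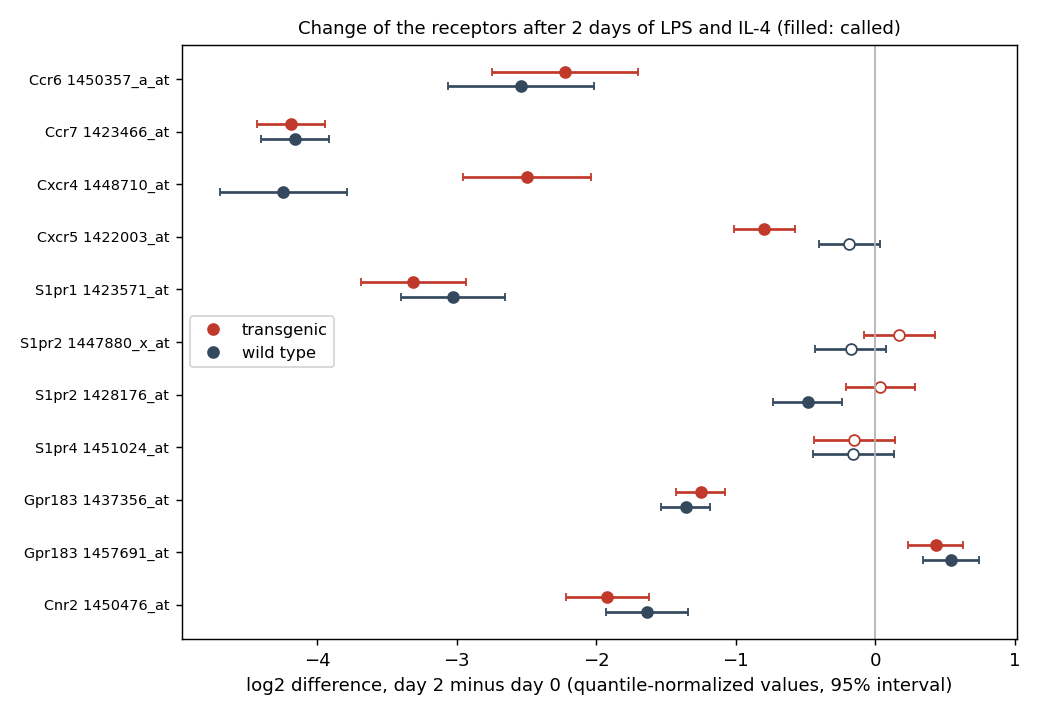
Log2 change of the 11 receptor probe sets from unstimulated cells after 2 days of LPS and IL-4, on values quantile-normalized over the 12 arrays (points, with 95% intervals; transgenic red and wild type dark blue, filled where called at a limma adjusted p under 0.05). Ccr7 sits at −4.19 and −4.16 in the 2 genotypes, Cxcr4 at −2.50 in transgenic and −4.24 in wild type cells, and Gpr183 has one probe set on each side of 0; the signs of Cxcr5 and S1pr4 in both genotypes, and of S1pr2 in transgenic cells, flip under another scaling.

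Among 24 other chemoattractant and lipid receptors measured, 8 were higher and 1 was lower in transgenic cells at day 0, with a median of 0.21, and 2 were higher at day 2, with a median of 0.058. Over all genes, 5.45% were called higher and 4.9% lower at day 0, and 1.24% and 1.1% at day 2. The largest at day 0 were Ackr2, a decoy for inflammatory CC chemokines, Ackr3, a scavenger of CXCL12, and Ccr1 and Ccr3, receptors of myeloid cells and eosinophils. They were higher by 1.38 ± 0.087, 1.38 ± 0.21, 1.37 ± 0.10 and 1.22 ± 0.22 (SE, n = 3 each, limma adjusted p = 7.5e-07, 0.00124, 3.29e-06 and 0.00369). Ccr1 was called at 1 of its 2 probe sets. Myeloid and granulocyte markers were higher at day 0 too, as described above, and their part in these receptor differences was not tested. At day 2 Ccrl2, an atypical receptor for chemerin, was higher by 0.91 ± 0.15 (limma adjusted p = 0.00495) and Ackr2 by 0.48 ± 0.087 (0.0113), the latter called at 1 of its 3 probe sets. The Ackr2 call was lost without wild type replicate 1 (0.45, 0.0556) or 2 (0.47, 0.0528) or transgenic replicate 2 (0.48, 0.0507). After stimulation 35.2% of all genes rose and 23.3% fell in transgenic cells, and 36% rose and 24% fell in wild type cells. These shares are the background for the lists below too. Of the 24 receptors, 2 rose and 15 fell in transgenic cells and 4 rose and 12 fell in wild type cells. P2ry10 and Ccr1, for example, fell by 2.00 and 3.18 in transgenic cells and by 2.13 and 2.01 in wild type cells.

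Of 18 genes for ligands or for making, moving and breaking down lipid ligands, 5 were higher and 0 lower in transgenic cells at day 0 (median 0.0083), and limma called 0 at day 2 (median −0.038, 3 with an unadjusted p under 0.05). Over all 18193 genes, 2402 had an unadjusted limma p under 0.05 at day 2. The shares over all genes were 5.45% higher and 4.9% lower at day 0, and 1.24% and 1.1% at day 2. Hsd3b7, which breaks down the GPR183 ligand, was higher by 0.51 ± 0.10 (limma adjusted p = 0.00728) and Sphk1, a sphingosine kinase, by 0.44 ± 0.078 (0.004). Mfsd2b, a sphingosine 1-phosphate exporter of red cells and platelets, was higher by 0.60 ± 0.16 (0.0326) and Cxcl13, the CXCR5 ligand, by 0.39 ± 0.088 (0.0157). Sphk1, Mfsd2b and Cxcl13 were each called at 1 of 2 probe sets. Of the markers of other cells, 5 of 6 erythroid, 9 of 9 granulocyte and 9 of 11 myeloid markers were higher at day 0 too. Their part in these ligand gene differences was not tested. Sphk1 (5.43 in transgenic and 4.99 in wild type cells), Hsd3b7 (6.12 and 5.60) and Cxcl13 (6.12 and 5.73) were dim. They lay near or below the day 0 array medians of 5.97 to 6.05. The calls of Mfsd2b and Cxcl13 were also less stable. Mfsd2b lost its call without wild type replicate 1 (0.37) or transgenic replicate 1 (0.56), 2 (0.66) or 3 (0.57), and Cxcl13 without wild type replicate 2 (0.33) or transgenic replicate 3 (0.35). After stimulation 3 of the 18 rose and 8 fell in each genotype, with Spns2, another sphingosine 1-phosphate exporter, down by 2.80 in transgenic and 2.88 in wild type cells.

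Of 35 genes of G protein signalling below the receptors, 3 were higher and 2 lower in transgenic cells at day 0 (median 0.06), and 2 higher and 1 lower at day 2 (median 0.11). The shares over all genes were 5.45% higher and 4.9% lower at day 0, and 1.24% and 1.1% at day 2. Rgs13, a brake on chemokine receptor signals in germinal centre B cells, was lower at day 0 (−1.14 ± 0.13, limma adjusted p = 0.000121), and its interaction was 1.32 ± 0.18 (0.00247). At day 2 Rgs13 averaged 4.19 in transgenic and 4.01 in wild type cells, below the array medians of 5.36 to 5.41. A difference at day 2 may therefore not show. Rasgrp2, which activates the integrin switch RAP1, was lower at day 2 (−1.61 ± 0.10, limma adjusted p = 1.37e-06; 2 of its 4 probe sets were called), and its interaction was −1.58 ± 0.14 (0.000128). Rgs10 was higher by 0.59 ± 0.098 at day 0 (0.0024), and Rgs2 was higher by 0.53 ± 0.084 at day 2 (0.00469; 1 of its 4 probe sets was called). Stimulation lowered most of this list: 27 fell and 5 rose in transgenic cells and 24 fell and 5 rose in wild type cells, with medians of −0.87 and −0.84. Rgs1 and Rgs2, both brakes on receptor signals, fell by 5.32 and 5.59 in transgenic cells and by 5.15 and 6.06 in wild type cells.

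Of 17 regulators of these receptors, 0 were called by limma at day 0 (median −0.063, 2 with an unadjusted p under 0.05) and 1 was higher and 2 were lower in transgenic cells at day 2 (median −0.06). Over all 18193 genes, 4604 had an unadjusted limma p under 0.05 at day 0. The shares over all genes were 5.45% higher and 4.9% lower at day 0, and 1.24% and 1.1% at day 2. Klf2, a factor known to drive S1pr1, was lower at day 2 (−1.04 ± 0.078, limma adjusted p = 7.81e-06), as was Klf3, a related repressor (−1.21 ± 0.10, 2.88e-05; 1 of its 7 probe sets was called). S1pr1 itself differed by −0.24 at that time, without a call. Prdm1, the plasma cell factor, was higher by 0.82 ± 0.15 (0.0117), a call lost without wild type replicate 3 (0.77) or transgenic replicate 1 (0.76) or 2 (0.82). Stimulation lowered 14 and raised 1 of the 17 in each genotype, with Klf2 down by 4.12 in transgenic and 3.22 in wild type cells.

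**Figure D4:**
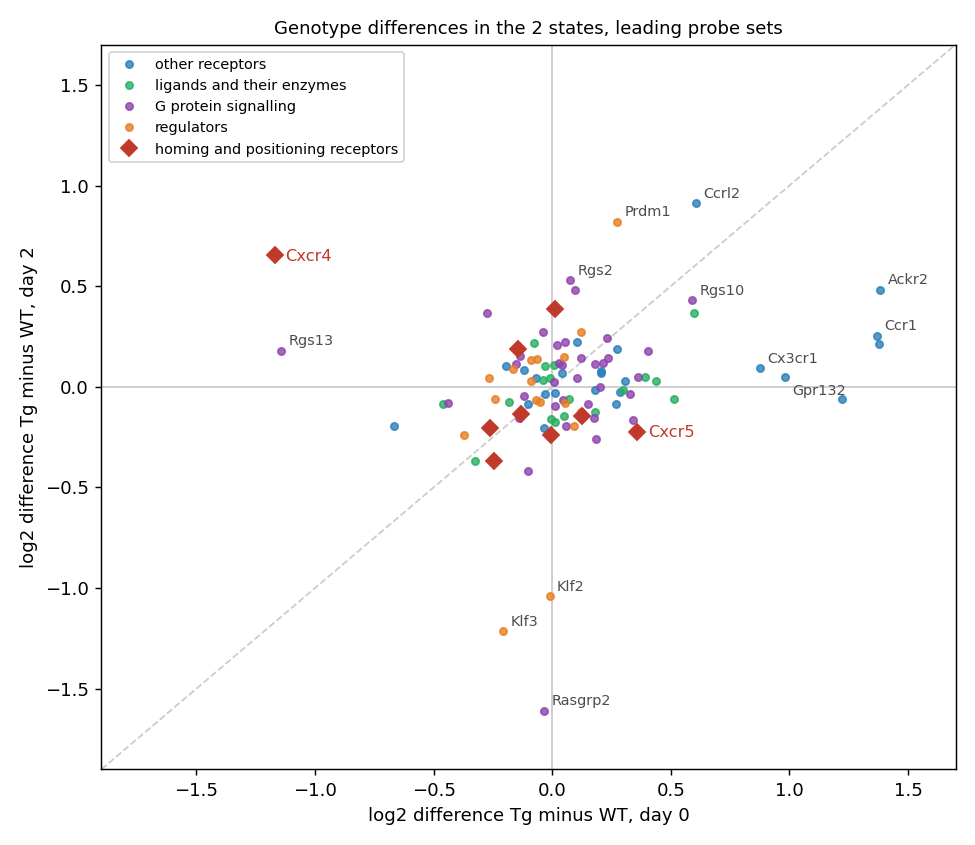
Transgenic minus wild type log2 difference at day 0 (horizontal) and day 2 (vertical) at the leading probe set of each receptor (red diamonds) and of the genes on the 4 pathway lists (coloured points); on the dashed line both differences are equal. Cxcr4 lies at −1.17 and 0.65 and Cxcr5 at 0.36 and −0.22, on opposite sides of the line, while Klf2, Klf3 and Rasgrp2 lie near 0 to −0.21 at day 0 and at −1.04, −1.21 and −1.61 at day 2.

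The genes whose profiles over the 12 arrays were most like each receptor are given as a description, on quantile-normalized values; the arrays share the 2 states and the 2 genotypes. For Cxcr4 they were Gab3 (Pearson r = 0.989), Safb2 (0.989) and Cdk11b (0.987), and for Cxcr5 they were Fbxw5 (0.982), Rgs19 (0.980) and B3gnt2 (0.957). For Ccr7 they were Ets1 (0.999), Blk (0.999) and Crebrf (0.998), for S1pr1 they were Tgif1, Pip4p1 and Kdm7a (each 0.997), and for Ccr6 they were Glcci1 (0.994), Cdc37l1 (0.994) and H3f3a (0.992). Gpr183 was most like Mapk11 (0.996), Mycbp2 (0.995) and Zbtb10 (0.994), and Cnr2 most like Ifrd1, Plekha1 and Syap1 (each 0.995). The highest r values for S1pr2 and S1pr4 were lower, with Klb (0.858) and Rce1 (0.865) at the top.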

How the data were processed

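RNA of 12 samples was hybridised to Affymetrix arrays, 1 array per sample. RMA and affy, named in the submitters' processing notes, gave the deposited log2 value of each probe set; versions and whether the states were normalized together are not given in the sources used here. The labels call the replicates independent. The table lists 45101 probe sets, of which 64 controls were not tested; 34945 of the rest have 1 gene symbol, 932 several and 9160 none, and 34741 of the single symbols were matched by Entrez identifier.

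limma 3.58.1 (R 4.3.3) fitted 1 coefficient per group over the 12 arrays, with 8 residual and 4.71 prior degrees of freedom, and Benjamini-Hochberg adjustment over 45037 probe sets. Genotype differences and interactions use the deposited values, stimulation changes values quantile-normalized over the 12 arrays. The fit was tested on simulated data.

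Named were all receptors, up to 4 called genes with the largest change per list and contrast (not all are printed), and the 3 most correlated genes per receptor. The receptors and lists were chosen with earlier results of these data known. Alternatives changed the scaling, the filter on dim probe sets, the probe set rule, the variance trend, the arrays fitted and the replicate block, and left out each array. Deviations from group means correlated between same-numbered stimulated and unstimulated wild type arrays at 0.327, 0.176 and 0.219, against at most 0.091 between differently numbered ones. Between the genotypes at day 2 the values were 0.307, 0.0889 and 0.17, against at most 0.054. Same-numbered arrays thus had the higher values in these comparisons, though by little for replicate 2 at day 2 (0.0889 against 0.054). This did not hold for every number between the genotypes at day 0 or between the states of transgenic cells. Deviations from a group mean cancel out within the group, so these correlations are not independent. They do not decide whether the numbers pair the arrays. The main tests fitted no block, which was an alternative. Eif2s3y, a Y-linked gene, separated replicate 3 of each group (3.33 to 3.78) from replicates 1 and 2 (8.27 to 9.55). The number of arrays limits the precision.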

Additional observations from a re-analysis of the deposited data

Results flagged for a closer look

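Each result here is a difference between transgenic and wild type cells that itself differed between the states, by the interaction test of limma (day 2 difference minus day 0 difference, 3 arrays per group). Among the homing and positioning receptors these were Cxcr4, at 1.82 (adjusted p = 0.0134), and Cxcr5, at −0.58 (0.0399). Among the other chemoattractant receptors they were Ccr1 at −1.12 (0.00153), Gpr132, a receptor for oxidised lipids, at −0.93 (0.0105), Ackr2 at −0.90 (0.00259) and Cx3cr1, the fractalkine receptor, at −0.78 (0.0165). Cx3cr1 lost its call without stimulated wild type replicate 2 (−0.74, 0.0544). Ccr1, Gpr132 and Cx3cr1 were each called at 1 of 2 probe sets, and Ackr2 at 2 of 3. At day 2 Ccr1 (4.07 in transgenic and 3.82 in wild type cells) and Cx3cr1 (5.10 and 5.00) lay below the array medians of 5.36 to 5.41. A difference at day 2 may therefore not show for these genes. In the same test 9 of 9 granulocyte, 4 of 6 erythroid and 3 of 11 myeloid markers were called negative too; their part in these receptor results was not tested. Of the signalling genes Rasgrp2 stood at −1.58 (0.000128, at 1 of 4 probe sets) and Rgs13 at 1.32 (0.00247). Rgs13 also lay below the array medians at day 2 (4.19 in transgenic and 4.01 in wild type cells). Of the regulators Klf2 stood at −1.03 (0.000464) and Klf3 at −1.01 (0.00429; 1 of 7 probe sets). Over all genes, 1.39% were called negative and 0.588% positive in the interaction test. Called negative were 4 of 24 other receptors, 1 of 35 signalling genes and 2 of 17 regulators. Called positive were 0, 1 and 0 of these lists.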

How the results depend on the processing

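Of 725 values of the receptors under other settings, 671 kept their direction and their side of the threshold. With the same sign, 22 lost a call and 12 gained one, and 20 changed sign. Some sign changes after stimulation also crossed the threshold. With array medians subtracted, Cxcr5 in wild type cells and S1pr4 in both genotypes gained a call, and Cxcr5 in transgenic cells lost its call. On deposited values both S1pr2 probe sets gained a call in transgenic cells. Of 754 values of the other named genes, 716 were kept and 38 lost a call. With only the 6 arrays of day 0, 1 receptor instead of 2 and 1908 instead of 4256 probe sets were called between genotypes. For the interaction 1 receptor instead of 2 was called with quantile normalization and with the replicate block. The block kept Cxcr4 (adjusted p = 0.00992 at day 0 and 0.0206 for the interaction) and ended the Cxcr5 interaction (0.0626). Deviations from group means of same-numbered samples correlated at 0.0499 to 0.285 between the genotypes at day 0 and 0.0889 to 0.307 at day 2. Between the states of transgenic cells these deviations correlated at −0.159 to 0.119.

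Leaving out 1 array at a time gave 2174 to 7518 probe sets and 1 to 2 receptors at day 0, 452 to 597 and 0 to 1 at day 2 (839 with all arrays), 388 to 1418 and 1 to 2 for the interaction (710 with all arrays), 22439 to 23174 and 7 for stimulation in transgenic cells, and 23263 to 25108 and 6 to 7 for stimulation in wild type cells.

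Sign changes were as follows. At day 0, S1pr1 was 0.048 with quantile normalization and −0.22 to 0.11 without single arrays, Ccr6 −0.033 with medians subtracted and −0.22 to 0.15 without single arrays, and Cnr2 −0.04 to 0.24 without single arrays. At day 2, S1pr2 1428176_at was −0.0031 with quantile normalization, −0.0067 with medians subtracted and −0.022 to 0.048 without single arrays. After stimulation, medians subtracted gave Cxcr5 0.57 and S1pr4 0.34 in wild type cells and 0.017 and 0.37 in transgenic cells, S1pr4 lay at −0.27 to 0.035 without single transgenic arrays, and deposited values gave S1pr2 −0.59 at 1428176_at and −0.30 at 1447880_x_at in transgenic cells. The Gpr183 interaction was −0.058 as the mean over its probe sets. The cause of these changes was not tested. Groups of 3 arrays leave intervals wide enough to hold small differences of either sign.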
